A study of Mus musculus with 8 samples.

Results

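Lipoprotein lipase and the genes that anchor, fold and process it were followed across RNA from lung endothelial cells of mice given a control AAV or an nANGPTL4 AAV. The 8 genes were chosen by name: the lipases Lpl and Lipg, the lipase anchor Gpihbp1, the maturation factor Lmf1 and the proprotein convertases Furin, Pcsk5, Pcsk6 and Pcsk7. All 8 were found among the 31610 genes of the count table. The cells were sorted by flow cytometry from lungs of C57BL/6J mice, 4 independent biological replicates in each group. AAV, an adeno-associated virus, serves as a vector to deliver a gene, and both groups received one. The sources used here give neither the age and sex of the mice nor the AAV serotype, promoter and dose.

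Lipoprotein lipase hydrolyses triglycerides of circulating lipoproteins at the luminal face of capillaries. It is made largely by parenchymal cells, folds in the endoplasmic reticulum with the help of LMF1, and is carried across and held on capillary endothelium by GPIHBP1. ANGPTL4 inactivates the enzyme, and its N-terminal part is the inhibitory fragment. Proprotein convertases such as furin cut after basic residues, and lipoprotein lipase, endothelial lipase and ANGPTL4 are among their substrates.

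Stretches of the coding sequences that bear on processing and anchoring were read from the GENCODE M21 transcripts of mm10. The first and second lines below show the stretches of Lpl and Angptl4 around a convertase-type motif, with the codons for arginine, any residue, lysine or arginine, and arginine in capitals. The third shows the acidic stretch near the start of Gpihbp1, a part of the protein known to bind lipoprotein lipase, with codons that begin with GA, which encode aspartate or glutamate, in capitals.
Lpl: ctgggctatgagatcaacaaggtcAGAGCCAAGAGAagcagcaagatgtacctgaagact
Angptl4: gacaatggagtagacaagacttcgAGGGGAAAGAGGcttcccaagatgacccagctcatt
Gpihbp1: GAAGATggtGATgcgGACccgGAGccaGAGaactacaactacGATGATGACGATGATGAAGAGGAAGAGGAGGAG

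The Lpl stretch lies in exon 6 at chr8:68896760-68896819 on the plus strand, and its marked codons are 321 to 324 of 474. The Angptl4 stretch lies in exon 3 at chr17:33780561-33780620 on the minus strand, with marked codons 165 to 168 of 410. The motif occurred once in each of these coding sequences and at codons 302 and 327 of 500 in Lipg. Of 21549 mouse genes with a complete coding sequence, 24.2% held the motif at least once, so a match alone is a description and not a cleavage site. The Gpihbp1 stretch lies in exon 2 at chr15:75597048-75597122 on the plus strand. Of its 25 codons 17 are acidic, a density reached in a window of that length in 1.5% of the genes.

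Total counts were 83183122 to 114337333 per library. Summed CPM (counts scaled to a common library size, with TMM factors) of the 10 pan-endothelial markers was 16591 to 17574 in control AAV and 16059 to 16712 in nANGPTL4 AAV. The 10 type 2 alveolar epithelial markers summed to 200.1 to 345.5 and 266.5 to 397.1 CPM, the 11 myeloid markers to 18.9 to 40.8 and 30.3 to 49.6 CPM, and the 11 fibroblast and lipofibroblast markers to 141 to 233 and 161 to 297 CPM. General capillary markers, a list of 10 that includes Gpihbp1, summed to 19621 to 21290 CPM in control AAV and 17514 to 19200 CPM in nANGPTL4 AAV, ranges that did not overlap. Arterial markers (3337 to 3809 against 2879 to 3002 CPM) and venous markers (3285 to 3533 against 2592 to 2968 CPM) were also lower without overlap, and lymphocyte markers (1.83 to 2.29 against 2.42 to 5.21 CPM) higher, while the sums of the other 11 lists overlapped. The TMM factors were 0.969 to 0.994 in control AAV and 1.008 to 1.023 in nANGPTL4 AAV. Without them the general capillary sums overlapped between the groups, while the arterial, venous and lymphocyte sums still did not. Which cell type of a mixed sort carried a transcript cannot be read from these libraries.

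None of the 8 genes passed the test between the groups (0 of 8 called at an adjusted p under 0.05 by the quasi-likelihood test of edgeR, with adjustment over all 18874 genes tested). Across all genes tested 0.138% were called, 0.0477% as higher and 0.0901% as lower in nANGPTL4 AAV. At an unadjusted p under 0.05 there was 1 of the 8, Pcsk5, and 17.6% of all genes. DESeq2, which called 5.07% of all genes, gave Pcsk6 no adjusted p and called 0 of the other 7, and limma-voom called 0 of the 8. For none of the 8 did the groups separate without overlap in CPM, as they did for 10.9% of all genes. There were 6 with negative log2 fold changes (nANGPTL4 AAV minus control AAV), with a median over the 8 of -0.04 beside 0.01 over all genes and -0.03 over the 9256 genes with a mean log2 CPM over 3, as 6 of the 8 have. Without TMM factors the median of the 8 was -0.0011, that of all genes 0.05 and that of the 9256 genes 0.0094.

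**Figure D1:**
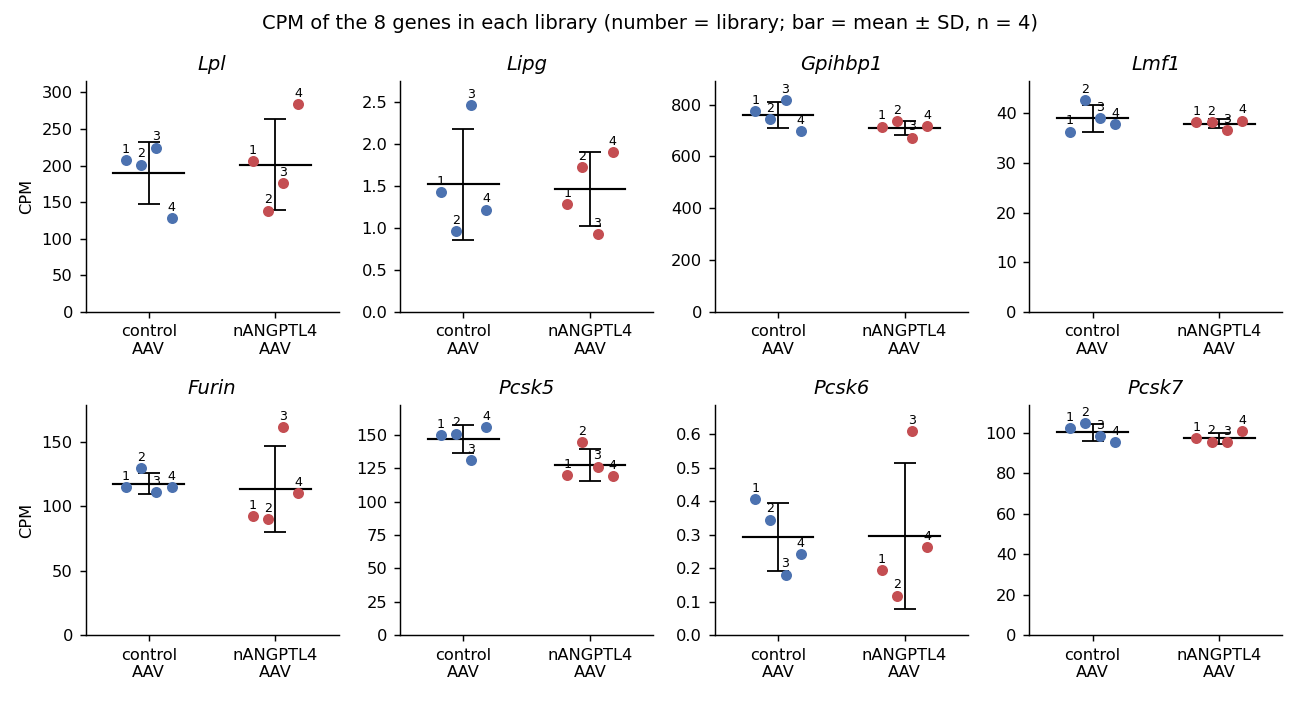
CPM of each gene in each of the 8 libraries, on linear axes that start at 0, with the library number beside each point and the mean ± SD of the 4 libraries of a group as bars. Lpl ranges from 128 to 284 CPM and Pcsk7 from 95.2 to 105 CPM, and the groups overlap for every gene.

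Lpl (ENSMUSG00000015568.16), the gene of lipoprotein lipase, spans chr8:68880491-68907448 (mm10, plus strand). It had 207, 201, 225 and 128 CPM in control AAV libraries 1 to 4 and 206, 138, 176 and 284 CPM in nANGPTL4 AAV libraries 1 to 4. Library 4 of control AAV was the lowest of the 8 and library 4 of nANGPTL4 AAV the highest, with the other 6 in between and no separation of the groups. The means were 190.2 ± 42.6 and 201 ± 62.1 CPM (SD, n = 4 each). This gave a log2 fold change of 0.08 (SE 0.21, 95% confidence interval -0.39 to 0.55, edgeR adjusted p = 0.877). Folds from 0.765 to 1.46 thus lay within the interval. The value was -0.07 without control AAV library 4, -0.13 without nANGPTL4 AAV library 4 and -0.28 without both (edgeR adjusted p = 0.340), the last a choice made after the values were seen. Over all 18 alternatives the adjusted p ranged from 0.340 to 0.939.

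Lipg (ENSMUSG00000053846.4) encodes endothelial lipase, a relative of lipoprotein lipase that acts mainly on phospholipids of high-density lipoproteins. It spans chr18:74939322-74961263 (minus strand). It was sparsely counted, with 130, 109, 204 and 121 counts in control AAV and 119, 175, 102 and 196 counts in nANGPTL4 AAV. These are 1.52 ± 0.66 and 1.46 ± 0.441 CPM (SD, n = 4 each), and library 3 of control AAV, at 2.47 CPM, was the highest of the 8. For Lipg the log2 fold change was -0.05 (SE 0.30, 95% confidence interval -0.71 to 0.61, edgeR adjusted p = 0.954). Without control AAV library 3 it was 0.30, and the interval spans folds from 0.613 to 1.53.

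Gpihbp1 (ENSMUSG00000022579.10), the capillary anchor whose acidic stretch is printed above, was the most abundant of the 8 genes and spans chr15:75596628-75599481 (plus strand). It had 777, 745, 818 and 698 CPM in control AAV and 715, 736, 673 and 719 CPM in nANGPTL4 AAV. The lowest of all was nANGPTL4 AAV library 3 and the highest control AAV library 3, and control AAV library 4 fell inside the nANGPTL4 AAV range. For Gpihbp1 the log2 fold change was -0.10 (SE 0.06, 95% confidence interval -0.22 to 0.03, edgeR adjusted p = 0.405). The interval covers folds of 0.86 to 1.02. General capillary markers, Gpihbp1 among them, had a median log2 fold change of -0.20, and 1 of the 10 had a positive value. Arterial and venous markers were lower too, with medians of -0.27 and -0.25 (0 of 10 positive in each list, 1 arterial marker called). Lymphatic markers had a median of -0.18 (1 of 7 positive). Aerocyte markers, the other capillary list, went the other way, with a median of 0.06 and 9 of 10 positive. The part of these shifts in the value of Gpihbp1 was not tested. In bulk libraries such as these, fewer cells of a type and less RNA per cell cannot be told apart.

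Lmf1 (ENSMUSG00000002279.18), an endoplasmic reticulum protein needed for active lipase dimers, spans chr17:25579085-25662826 (plus strand). It had 36.3, 42.8, 39.1 and 37.8 CPM in control AAV and 38.3, 38.3, 36.6 and 38.6 CPM in nANGPTL4 AAV. All 8 values lay within a 1.18-fold range, and the groups overlapped. The log2 fold change was -0.04 (SE 0.05, 95% confidence interval -0.16 to 0.08, edgeR adjusted p = 0.745) and 0.0027 without TMM factors.

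**Figure D2:**
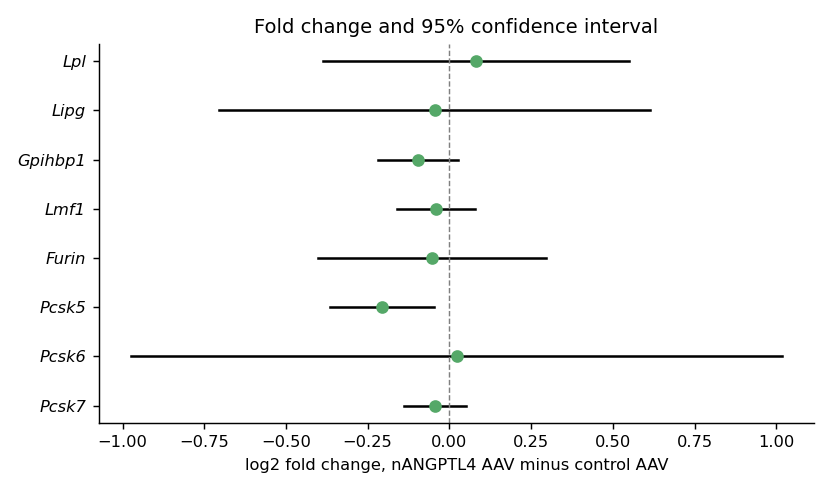
Log2 fold change of each gene, nANGPTL4 AAV minus control AAV (points), with its 95% confidence interval from the edgeR fit (lines). The interval of Pcsk5 alone leaves out 0, before adjustment over all genes, and those of Pcsk6, Lipg and Lpl are the widest.

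The convertases differed from one another in level and in spread. Furin (ENSMUSG00000030530.15), the founding member of the family, spans chr7:80388585-80405436 (minus strand). It had 115, 129.6, 111 and 115 CPM in control AAV and 92.0, 89.7, 161 and 109.8 CPM in nANGPTL4 AAV. Library 3 of nANGPTL4 AAV was the highest of the 8, and the other 3 of its group were below every control AAV library. The closest pair across the groups stood at 109.8 and 111 CPM, and its order turned without TMM factors. The log2 fold change was -0.05 (SE 0.16, 95% confidence interval -0.40 to 0.30, edgeR adjusted p = 0.894). Without nANGPTL4 AAV library 3 it was -0.26 (SE 0.08, edgeR adjusted p = 0.159).

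Pcsk5 (ENSMUSG00000024713.15), a convertase with a secreted form, spans chr19:17432319-17837632 (minus strand). It had 149, 151, 131 and 156 CPM in control AAV and 119.7, 144, 126 and 119 CPM in nANGPTL4 AAV. Of the control AAV libraries only library 3 came below nANGPTL4 AAV library 2, and no other pair of libraries crossed. Without TMM factors control AAV library 1 came below it too. Its log2 fold change was -0.21 (SE 0.07, 95% confidence interval -0.36 to -0.05, edgeR adjusted p = 0.178) and did not pass. Without TMM factors it was -0.16 (edgeR adjusted p = 0.284). Leaving out 1 library at a time gave -0.26 to -0.17 and no adjusted p under 0.05, and over all 18 alternatives the adjusted p ranged from 0.107 (DESeq2) to 0.444. The lower summed levels of general capillary, arterial and venous markers in nANGPTL4 AAV stood beside this value, and their part was not tested. Summed aerocyte markers were not lower, at 6674 to 7457 CPM in control AAV and 6876 to 8394 CPM in nANGPTL4 AAV, ranges that overlapped.

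Pcsk6 (ENSMUSG00000030513.14), a convertase that binds heparan sulfate, spans chr7:65861734-66050386 (plus strand). It was the sparsest of the 8, with 37, 39, 15 and 24 counts in control AAV and 18, 12, 67 and 27 counts in nANGPTL4 AAV. Its highest library was again nANGPTL4 AAV library 3, and its lowest nANGPTL4 AAV library 2. Its log2 fold change was 0.02 (SE 0.45, 95% confidence interval -0.97 to 1.02, edgeR adjusted p = 0.985) and -0.60 without nANGPTL4 AAV library 3. Folds from 0.509 to 2.02 lay within the interval.

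Pcsk7 (ENSMUSG00000035382.9), a widely expressed convertase, spans chr9:45906497-45929726 (plus strand). It was the steadiest of the 8, with 102, 105, 98.4 and 95.5 CPM in control AAV and 97.1, 95.6, 95.2 and 101 CPM in nANGPTL4 AAV. The groups overlapped, and the log2 fold change was -0.04 (SE 0.04, 95% confidence interval -0.14 to 0.05, edgeR adjusted p = 0.633). Of its exonic bases 7.98% overlap Rnf214 and 2.08% overlap the smooth muscle gene Tagln, both on the other strand. In control AAV, Rnf214 averaged 32.8 CPM and Tagln ranged from 1.11 to 1.45 CPM. The sources used here give no strand setting for the counting, so the counts of Pcsk7 are less certain, and those of Furin are so for the 1.29% of its exonic bases that an antisense gene covers. Pcsk6 shares 3.01% of its exonic bases with Gm45213 on the same strand, a gene absent from the count table.

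Levels of different genes can be compared only per length. Per kilobase of exon, Gpihbp1 was at 297 ± 19.9 CPM in control AAV (SD, n = 4), the first of the 8 in every library. Pcsk7 followed at 19.3 ± 0.787, Lpl at 18.2 ± 4.06, Furin at 12.8 ± 0.91, Pcsk5 at 10.2 ± 0.742 and Lmf1 at 2.87 ± 0.203 CPM per kilobase. Lipg at 0.322 ± 0.14 and Pcsk6 at 0.0566 ± 0.0195 CPM per kilobase came last in every library. The neighbours Pcsk7 and Lpl did not differ beyond their spread, since Lpl was above Pcsk7 in control AAV libraries 1 and 3 and nANGPTL4 AAV libraries 1 and 4 and below it in the others. Furin was above Lpl in control AAV library 4 and nANGPTL4 AAV library 3, and Pcsk5 above Furin in nANGPTL4 AAV library 2. With the longest transcript as the length, Lpl came second in every library, at 46.2 ± 10.3 CPM per kilobase in control AAV.

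Ratios within a library, which do not depend on the scaling between libraries, gave the balance between partners. The log2 ratio of Lpl to Gpihbp1 CPM was -1.91, -1.89, -1.87 and -2.45 in control AAV and -1.79, -2.41, -1.94 and -1.34 in nANGPTL4 AAV. Control AAV library 4 and nANGPTL4 AAV library 2 had the least Lpl for their Gpihbp1, and nANGPTL4 AAV library 4 had the most. The difference was 0.16 (p = 0.486, exact two-sided permutation test over 70 arrangements, adjusted p = 0.914 over the 6 ratios tested). The smallest p this test can give is 0.0286. The direction turned without nANGPTL4 AAV library 4, to -0.02.

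Among the convertases, the log2 ratio of Pcsk7 to Furin was -0.17, -0.31, -0.17 and -0.27 in control AAV and 0.08, 0.09, -0.76 and -0.12 in nANGPTL4 AAV. Libraries 1, 2 and 4 of nANGPTL4 AAV lay above all 4 control AAV libraries and library 3 far below them. The difference was 0.05 over all libraries (exact permutation p = 0.886) and 0.24 without nANGPTL4 AAV library 3 (exact permutation p = 0.0286, the smallest that test can give). Each library was left out in turn, and this case is given because library 3 was seen to go the other way. Its p is not adjusted and follows from the separation already described, so it adds no support for a difference. The log2 ratio of Pcsk5 to Furin was -0.35 in nANGPTL4 AAV library 3 and 0.12 to 0.69 in the other 7 libraries, with a difference between groups of -0.11 (exact permutation p = 0.657). Lpl to Lmf1, Lipg to Lpl and Pcsk6 to Furin differed by 0.10, -0.08 and -0.06 on the log2 scale. All 6 ratios had an adjusted p of 0.914 in the permutation test.

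**Figure D3:**
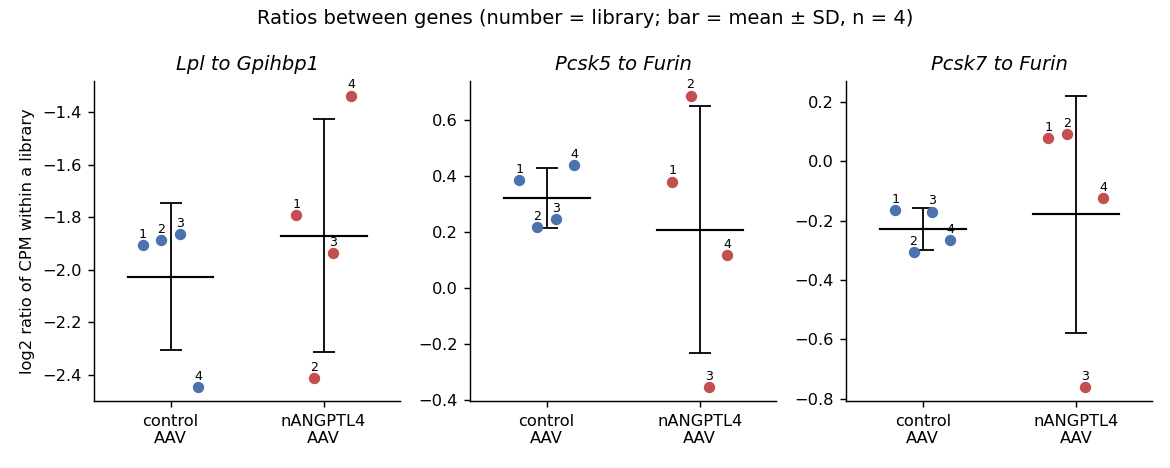
Log2 ratio of CPM between genes within a library, with the library number beside each point and the mean ± SD of the 4 libraries of a group as bars. In the Pcsk7 to Furin panel nANGPTL4 AAV library 3 is at -0.76 while the other 3 of its group are at -0.12 to 0.09.

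The replicates themselves differed far more for some of these genes than for others. Within groups the SD of log2 CPM was 0.40 for Lpl, where the 823 tested genes of like level (mean log2 CPM within 0.5) had a median SD of 0.07 and 9 of them a larger SD than Lpl. For Furin it was 0.28, above 98.3% of 1451 genes of like level. At their own low levels Lipg, at 0.52, was exceeded by 63 of 1269 genes and Pcsk6, at 0.73, by 60 of 2012. Pcsk5 at 0.12 was above 83.4%. Gpihbp1 at 0.08, Lmf1 at 0.08 and Pcsk7 at 0.05 were below the median of genes of like level, although without TMM factors Gpihbp1 (above 50.3% of them) and Lmf1 (above 56.3%) were just over it. The SE of the fold change on the log2 scale was accordingly 0.06 for Gpihbp1 and 0.21 for Lpl.

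**Figure D4:**
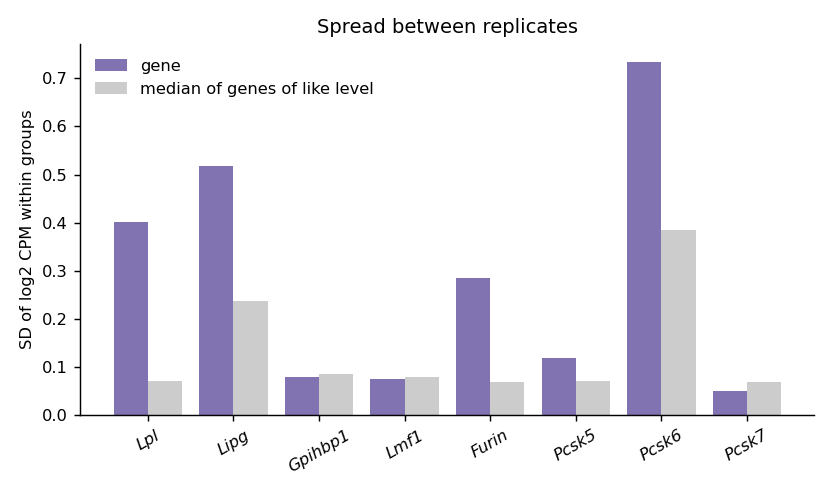
SD of log2 CPM between libraries of one group, pooled over both groups, for each gene (dark bars) and the median of tested genes of like level (grey bars). Lpl at 0.40 and Furin at 0.28 stand well above the grey bars at 0.07, while Gpihbp1, Lmf1 and Pcsk7 are close to theirs.

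The patterns across libraries were set against 8992 other named genes with a mean log2 CPM of at least 3, with Pearson's r of log2 CPM over the 8 libraries as a description. Furin was most like Rcc2 (r = 0.992), Selenon (r = 0.988) and Larp1 (r = 0.988), and 78 genes had an r over 0.9 with it. Rcc2, a regulator of the cytoskeleton and of cell division, had 52.1, 58.0, 47.9 and 51.9 CPM in control AAV and 38.6, 35.4, 82.96 and 51.0 CPM in nANGPTL4 AAV. It too was highest in nANGPTL4 AAV library 3 and lowest in libraries 1 and 2 of that group. Leaving out any 1 library kept r between Furin and Rcc2 at 0.981 to 0.996, so the likeness did not rest on library 3 alone. Rcc2 was picked as the closest of the 8992 genes in these same libraries, so this range is a description too.

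**Figure D5:**
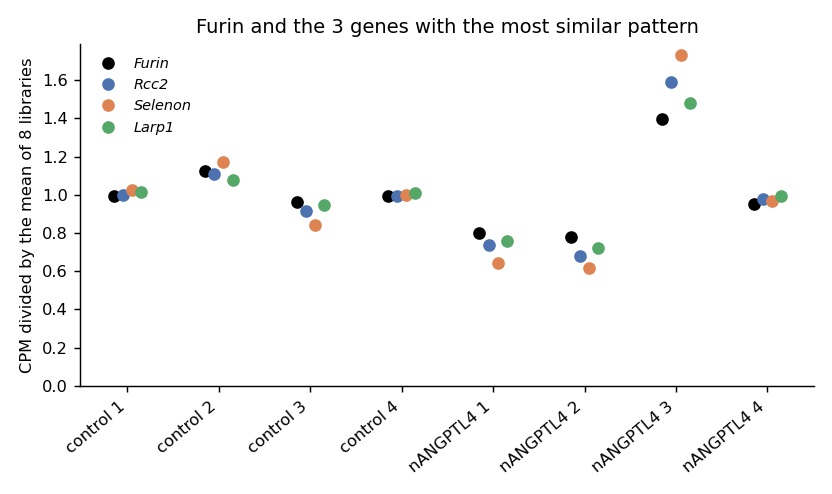
CPM of Furin, Rcc2, Selenon and Larp1 in each library, divided by the gene's mean over the 8 libraries. All 4 genes are highest in nANGPTL4 AAV library 3 and lowest in nANGPTL4 AAV libraries 1 and 2.

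Lpl was most like Ints6 (r = 0.963), a subunit of the Integrator complex, which ranged from 48.7 CPM in nANGPTL4 AAV library 2 to 74.1 CPM in library 4 of that group. Pbdc1 (r = 0.936), Rab3ip (r = 0.931), Kansl1 (r = 0.914) and Mxd4 (r = 0.913) followed. Gpihbp1 was most like Npr3 (r = 0.968), a natriuretic peptide receptor, Acer2 (r = 0.965), an alkaline ceramidase, Phactr4 (r = 0.962), Lyve1 (r = 0.926) and Epb41 (r = 0.923). Lyve1 is on the list of lymphatic markers, but Gpihbp1 had an r of -0.29 with the mean of that list. Npr3 spanned a 2.92-fold range over the libraries, from 148 to 432 CPM, while Gpihbp1 spanned a 1.22-fold range. Pcsk5 was most like the apelin receptor Aplnr (r = 0.975), a general capillary marker, Sec31a (r = 0.962) and Sorbs2 (r = 0.959). The relation of Pcsk5 to whole marker lists was not tested. Lmf1 was most like Lpcat4 (r = 0.939), Serpinh1 (r = 0.935) and Acp6 (r = 0.932), and Pcsk7 most like Calu (r = 0.914), Calhm2 (r = 0.886) and Phf12 (r = 0.886). With 1 library left out, the lowest r of any of these pairs was 0.734, between Lmf1 and Acp6. Of all these genes 0 were called between the groups.

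Lpl and Gpihbp1 were also set against 15 lists of cell type markers, by the mean log2 CPM of a list in each library. None of the 30 relations passed adjustment over the 30 (exact permutation test, smallest adjusted p = 0.947). The largest for Lpl was with cardiomyocyte markers, with Pearson's r = 0.592 (exact permutation p = 0.113) and Spearman's rho = 0.548 (exact permutation p = 0.171). It was -0.16 without the 2 libraries farthest from the median, so it rested on those libraries. The cardiomyocyte markers summed to 17.6 to 23.8 CPM over all 8 libraries. The largest for Gpihbp1 was with aerocyte markers, with Pearson's r = -0.655 (exact permutation p = 0.0853) and Spearman's rho = -0.524 (exact permutation p = 0.197), and it was 0.08 without the 2 farthest libraries. With adipocyte markers, of which Adipoq, Plin1, Lep and Retn were too sparse to test, Lpl had an r of 0.44 (exact permutation p = 0.272) and Spearman's rho of 0.286 (exact permutation p = 0.501). It was -0.74 without the 2 farthest libraries.

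Other genes of the pathway were read from 7 lists of 74 genes, 61 of them tested. None of the 61 was called by edgeR, beside 0.138% of all genes. An unadjusted p under 0.05 was reached by 16 of the 61, and by 17.6% of all genes. DESeq2 called 4, Angptl4 higher and Canx, Ndst1 and Slc27a4 lower, where it called 5.07% of all genes, and limma-voom called 0. Over all 18 alternatives the adjusted p ranged from 0.00901 to 0.285 for Angptl4, 0.00531 to 0.238 for Canx, 0.00364 to 0.238 for Ndst1 and 0.0322 to 0.298 for Slc27a4, and DESeq2 was the only one that called them. The groups did not overlap for 10 of the 61, or for 10.9% of all genes. The median log2 fold change of the 61 was -0.05, and -0.0024 without TMM factors. Negative values were held by 35 of the 61, and by 9014 of all 18874 genes tested.

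The regulators of lipase activity, ANGPTL proteins and apolipoproteins, had positive values for 7 of 7 tested genes, 0 called by edgeR, 1 by DESeq2 (Angptl4) and a median of 0.14 on the log2 scale (0.18 without TMM factors). Angptl4, the endogenous mouse gene, had 3.34, 2.94, 3.88 and 2.87 CPM in control AAV and 3.89, 6.59, 4.24 and 5.43 CPM in nANGPTL4 AAV. The groups did not overlap, though the closest pair of libraries stood at 3.89 and 3.88 CPM. The fitted log2 difference was 0.63 (SE 0.17, edgeR adjusted p = 0.110, DESeq2 adjusted p = 0.00901). The sources used here do not say which species the delivered sequence came from, and a share of vector reads in these counts was not tested. Angptl8, known from liver and fat as a regulator of lipoprotein lipase, averaged 1.70 CPM in the control group and 1.81 CPM in the other, and the groups overlapped.

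Genes for folding, glycosylation and quality control in the endoplasmic reticulum had negative values for 11 of 11 tested genes, 0 called by edgeR, 1 by DESeq2 (Canx) and a median of -0.12 on the log2 scale. That median was -0.07 without TMM factors. Canx, the lectin chaperone calnexin, had 373, 434, 384 and 398 CPM in control AAV and 344, 315, 319 and 346 CPM in nANGPTL4 AAV. All 4 nANGPTL4 AAV libraries were below all 4 control AAV libraries, and the fitted log2 difference was -0.26 (SE 0.06, edgeR adjusted p = 0.0756, DESeq2 adjusted p = 0.00531). Sel1l, part of the degradation machinery that lets lipoprotein lipase leave the endoplasmic reticulum, was at -0.10 (SE 0.04, edgeR adjusted p = 0.228), and Lmf2, the relative of Lmf1, at -0.10 (edgeR adjusted p = 0.330).

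The next list held sorting receptors, heparan sulfate proteoglycans and enzymes that make heparan sulfate. It had negative values for 8 of 11 tested genes, a median of -0.13 (-0.08 without TMM factors), 0 called by edgeR and 1 by DESeq2 (Ndst1). Ndst1, an enzyme that sulfates heparan sulfate, had 243, 259, 246 and 235 CPM in control AAV and 213, 223, 207 and 201 CPM in nANGPTL4 AAV, with no overlap. Its log2 fold change was -0.22 (SE 0.05, edgeR adjusted p = 0.0756, DESeq2 adjusted p = 0.00364). Sort1, the sorting receptor sortilin, was at -0.24 (SE 0.08, edgeR adjusted p = 0.154).

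Lipoprotein receptors and proteins that take up or bind fatty acids had negative values for 9 of 12 tested genes. Their median was -0.09 (-0.05 without TMM factors), with 0 called by edgeR and 1 by DESeq2 (Slc27a4). Cd36, which takes up fatty acids that the lipase releases, had 3017, 2824, 2829 and 2758 CPM in control AAV and 2378, 2387, 2744 and 2568 CPM in nANGPTL4 AAV. The groups did not overlap, although nANGPTL4 AAV library 3 came close to control AAV library 4 and was above it without TMM factors. The log2 fold change was -0.18 (SE 0.06, edgeR adjusted p = 0.145), and -0.14 without TMM factors. Slc27a4, a fatty acid transport protein, was at -0.22 (SE 0.06, edgeR adjusted p = 0.110, DESeq2 adjusted p = 0.0322).

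Other lipases had positive values for 5 of 8 tested genes, a median of 0.06 (0.10 without TMM factors) and 0 called by edgeR or DESeq2. Lipa, the lysosomal acid lipase, was at -0.08 (SE 0.04, edgeR adjusted p = 0.263). Pla1a, a phospholipase of the same family as Lpl, differed by 0.73 on the log2 scale, from a control AAV mean of 0.103 to 0.17 CPM (edgeR adjusted p = 0.261). DESeq2 gave Pla1a no adjusted p. Of the other convertases 3 of 5 were tested and 2 of these had positive values, with a median of 0.16 (0.20 without TMM factors) and 0 called by edgeR or DESeq2. Mbtps1, the site-1 protease, differed by -0.04 on the log2 scale, from 197 to 192 CPM (edgeR adjusted p = 0.723). Pcsk1 and Pcsk2 were too sparse to test. The LY6/uPAR family, to which GPIHBP1 belongs, had positive values for 6 of 9 tested genes, a median of 0.08 (0.12 without TMM factors) and 0 called by edgeR or DESeq2. Its highest member in CPM was Ly6e, at 2754 and 2775 CPM in the group means, and Ly6a was at 0.08 (SE 0.04, edgeR adjusted p = 0.366) and Cd59a at -0.28 (SE 0.15, edgeR adjusted p = 0.345).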

How the data were processed

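RNA from sorted lung endothelial cells was sequenced from cDNA made with a low-input kit, per the labels' protocols. The authors deposited whole-number read counts per Ensembl gene, not normalized, 1 column for each of 8 libraries. Reads were placed on mm10, per the submitters' processing notes. For the aligner, counter, strand setting and annotation: not given in the sources used here. Groups came from the treatment label, since NT Treated in the titles is not explained. Of 31610 identifiers 31491 matched a symbol. Positions, lengths and sequences came from GENCODE M21 (the same build), where 5 of the 8 genes have the version number of the file.

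Counts were fitted with edgeR 4.0.16 in R 4.3.3 (filterByExpr with a minimum count of 10, TMM, quasi-likelihood F test, group only), and p-values were Benjamini-Hochberg adjusted over 18874 genes. Log2 CPM used a prior count of 2. Confidence intervals are log2 fold change ± the t quantile times SE. Intervals cover the spread between these libraries. Permutation tests were exact and two-sided. The fit was tested on simulated counts for these 18874 genes, with 50 genes altered per fold size, of which 34% were recovered at 1.25-fold, 82% at 1.5-fold and 98% at 2-fold, with 6 unchanged genes called. The altered genes were drawn only above a minimum level that Lipg and Pcsk6 (mean log2 CPM 0.52 and -1.81) did not reach. Lpl and Furin spread more between replicates than most genes of like level. The shares are therefore not the power for each of the 8 genes.

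Named were the 8 genes, Angptl4 and Cd36, the 2 genes with the smallest p of each pathway list, and the genes with the most similar pattern (5 for Lpl and Gpihbp1, 3 for the others). Not every gene this rule names is reported here. Other list members are given as examples chosen after their values were seen. The genes and lists were chosen with earlier results of these data known. Alternatives were other scalings and filters, DESeq2 1.42.0, limma-voom (limma 3.58.1) with quality weights, a robust fit, a replicate block and each library left out.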

Additional observations from a re-analysis of the deposited data

Results flagged for a closer look

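Of 56 sets of 4 libraries (a gene's CPM or a log2 ratio in 1 group), 3 held a library far from the other 3, by a criterion that flags about 1 in 20 sets by chance. In control AAV the lowest log2 ratio of Lpl to Gpihbp1 was -2.45, in library 4, and the nearest other was -1.91. The gap was 0.927 of the range of the group. In nANGPTL4 AAV the lowest Lmf1 value was 36.6 CPM, in library 3, and the nearest other 38.3 CPM, a gap of 0.861 of the range. In control AAV the lowest Mbtps1 value was 186 CPM, in library 3, and the nearest other 200.1 CPM, a gap of 0.919 of the range.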

How the results depend on the processing

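None of the 8 genes was called in any of 18 alternative fits (the stricter low-count filter removed Pcsk6, and DESeq2 gave it no adjusted p), and the range of the log2 fold change over them was -0.28 to 0.24 for Lpl, -0.14 to -0.05 for Gpihbp1 and -0.26 to -0.14 for Pcsk5. The count over the whole table, 26 genes, was 4 with upper quartile scaling, 4 without TMM factors, 17 with the stricter low-count filter, 59 with the robust fit, 956 with DESeq2, 1 to 2 with 1 library left out and 0 without both libraries numbered 4. Why the counts moved was not tested. The last choice, made after the data were seen, also turned Lpl to -0.28, the ratio of Lpl to Gpihbp1 to -0.16, of Lpl to Lmf1 to -0.24, of Lipg to Lpl to 0.064, and Pcsk6 to -0.0060. Leaving out 1 library gave log2 fold changes of -0.13 to 0.24 for Lpl, -0.20 to 0.30 for Lipg, -0.064 to 0.018 for Lmf1, -0.26 to 0.056 for Furin and -0.60 to 0.30 for Pcsk6. It gave ratio differences of -0.021 to 0.34 for Lpl to Gpihbp1, -0.074 to 0.27 for Lpl to Lmf1, -0.34 to 0.090 for Lipg to Lpl, -0.27 to 0.072 for Pcsk5 to Furin, -0.29 to 0.16 for Pcsk6 to Furin and -0.042 to 0.24 for Pcsk7 to Furin. Lmf1 was 0.0027 and Mbtps1 0.0074 without TMM factors, Mbtps1 was 0.0040 with upper quartile scaling, and Pcsk6 was -0.095 with limma-voom. With the longest transcript as length, control AAV levels per kilobase were 46.2 CPM for Lpl, 460 (459.8) for Gpihbp1, 10.1 for Lmf1, 20.5 for Furin, 20.4 for Pcsk5 and 25.7 for Pcsk7. The replicate block called 6 genes and none of the 8, and put Pcsk6 at -0.14. Deviations of libraries with the same number had no common direction (r = 0.155, 0.144, -0.248 and -0.376 for numbers 1 to 4). Pairs with different numbers ranged from -0.36 to 0.33. So few pairs cannot settle whether libraries with the same number shared a batch. Pcsk6 had 12 to 67 counts and Lipg 102 to 204, and both also varied more between libraries than genes of like level.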
